A study of Mus musculus with 3 samples.

Results

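The 83 genes that encode the proteins of the cytosolic ribosome were examined in monocytes of the bone marrow (BM-Mono), monocytes of the spinal cord (SC-Mono) and monocyte-derived antigen-presenting cells of the spinal cord (SC-APC) of mice with experimental autoimmune encephalomyelitis (EAE). They were taken by gene symbol (Rpl or Rps with a number, Rplp0, Rplp1, Rplp2 and Rpsa, without Rps6 kinases, pseudogene symbols and Gm-numbered genes) from the 22238 genes listed for all 3 populations. Of the 83 genes, 52 belong to the large subunit and 31 to the small subunit. Another 4 matching symbols (Rpl32l, Rpl6l, Rps12l1 and Rps4l, all pseudogenes in the annotation) were not listed for SC-APC and were left out. The rule also passed over Rps3a1, a small subunit protein gene whose TPM (an abundance scaled for transcript length and library size) was 2114 in BM-Mono, 1623 in SC-Mono and 1751 in SC-APC.

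EAE is a mouse model of multiple sclerosis. Wild-type C57BL/6J mice, 10 to 12 weeks old, were immunized with a peptide of myelin oligodendrocyte glycoprotein in complete Freund's adjuvant and given 250 ng pertussis toxin on each of 2 occasions, and cells were sorted at days 14 to 15. All 3 populations therefore came from immunized mice. BM-Mono, sorted among CD45+ CD11b+ cells as high in Ly6C and without Ly6G and CD11c, were pooled from 13 mice in 2 experiments. SC-Mono were sorted among the CD64+ part of such cells as high in Ly6C and without Ly6G, and SC-APC as low in or without Ly6C, each pooled from 18 mice in 3 experiments. The sample title and the tissue entry place SC-APC in the spinal cord, whereas its source description names the bone marrow. Each population is 1 library, so no difference below has a replicate check, no test of the populations was possible and every interval covers counting error only. PCR copies are not independent molecules. The gates of the bone marrow and spinal cord populations differ in CD64 and CD11c. Their handling differed too. Spinal cords were digested with collagenase D and DNase I at a warm temperature and run on a Percoll gradient. Bone marrow was flushed out and enriched with a monocyte kit. Tissue, gate and handling therefore cannot be told apart.

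The ribosome builds proteins from mRNA in all cells. Its small subunit reads the mRNA and its large subunit joins the amino acids, and each protein of the subunits is present in about equal amounts. The mRNAs of these proteins are among the most abundant of the cell and carry a pyrimidine-rich start, the 5′ TOP motif, through which mTOR signalling controls their translation. Mammalian ribosomal protein genes have left many processed copies in the genome. Most are pseudogenes, and some keep the full coding sequence.

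The libraries held 33280643 estimated reads in BM-Mono, 27283795 in SC-Mono and 28209589 in SC-APC. The monocyte estimates covered 54432 genes, whereas SC-APC reads had 22242 genes to be assigned to. Summed TPM of the 6 monocyte markers was 10339, 8889 and 3488 in the order BM-Mono, SC-Mono and SC-APC. The 8 neutrophil markers summed to 7711, 1200 and 1343 in that order, the 8 mitosis genes to 622, 43.1 and 47.9, and the 6 T cell markers to 0.70, 58.2 and 85.9. The 6 microglia markers summed to 226, 481 and 938, the 6 erythroid markers to 1.94, 148 and 50.3, and the 6 markers of myeloid progenitors to 634, 76.7 and 65.6. The bone marrow library thus had the highest sums of mitosis, neutrophil and progenitor markers, and SC-APC those of microglia and T cell markers. Their part in the ribosomal protein values was not tested.

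The coding sequence of a ribosomal protein gene was often present a second time in the genome, and this is shown first because the estimated reads of several members moved with it. A copy was any other gene of the monocyte libraries that matched at least 50% of a member's coding sequence at 90% identity or more. There were 1029 such genes, of which 20 were listed for SC-APC. They held 187926 reads in BM-Mono, 146159 in SC-Mono and 48212 in SC-APC. For 29 of the 83 members, every stretch of 50 bases (the read length) in the coding sequence also occurred in another gene of the monocyte libraries, and for 3 in another gene of the SC-APC library. Such reads cannot be placed by sequence.

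The first 60 coding bases of 3 members are shown from the GENCODE M21 transcripts because the whole coding sequence was identical in the copy, with the start codon in capitals. Rpl12 (chr2:32961559-32965345, GRCm38) matched Gm10275 (chr10:29698746-29699380) over 498 bases, Rpl5 (chr5:107900502-107909005) matched Gm15500 (chr7:114705217-114706235) over 894 bases, and Rps27 (chr3:90212522-90213651) matched the retrogene Rps27rt (chr9:114982366-114982739) over 255 bases.
Rpl12 and Gm10275: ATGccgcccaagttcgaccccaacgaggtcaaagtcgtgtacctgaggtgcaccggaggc
Rpl5 and Gm15500: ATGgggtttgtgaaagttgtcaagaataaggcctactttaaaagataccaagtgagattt
Rps27 and Rps27rt: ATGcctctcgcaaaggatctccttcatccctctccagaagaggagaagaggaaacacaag

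In 3 other pairs a single base of the coding sequence told the member from its copy. It is shown in capitals within 41 bases, and positions count from 1 at the first coding base, with the member's base first. The differences were C117T between Rpl35 and Gm2000, G86A between Rpl11 and Gm10288, and C253T between Rpl23 and Gm9794.
Rpl35: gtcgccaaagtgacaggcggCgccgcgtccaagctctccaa
Gm2000: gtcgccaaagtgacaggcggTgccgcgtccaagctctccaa
Rpl11: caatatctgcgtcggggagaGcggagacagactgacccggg
Gm10288: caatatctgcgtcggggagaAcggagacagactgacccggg
Rpl23: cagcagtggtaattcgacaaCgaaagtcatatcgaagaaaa
Gm9794: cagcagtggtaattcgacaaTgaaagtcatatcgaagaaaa

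Reads at the copies reached the level of the members. Rpl5, a large subunit protein that binds 5S rRNA, had 1004 reads in BM-Mono, 525 in SC-Mono and 24341 in SC-APC, while Gm15500 had 26246 and 16292 reads in the monocytes and was not listed for SC-APC. Rpl12 had 229, 596 and 12881 reads in the same order, beside 14180 and 10285 at Gm10275 in the monocytes. Both members were thus low only where the copy was offered to the reads. Rps27 had 341, 245 and 1413 reads, and Rps27rt 11665, 10852 and 5452, so that most reads of this pair lay on the retrogene in all 3 libraries. In at least 1 monocyte library, 9 members had over 50% of the reads of member and copies on the copies (Rpl5, Rpl10, Rpl11, Rpl12, Rpl27a, Rpl35, Rps12, Rps23 and Rps27), 17 had over 5% and up to 50%, and 56 had up to 5%. Rpl10l, the remaining member, had 0 reads. For this reason each value below is given for the member alone and, where they differ, for member and copies summed. The summing was chosen after the data were examined.

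Ribosomal protein genes were among the most highly expressed genes in each population. TPM, rescaled to the genes common to the 3 libraries, was over 3 for 80 of the 83 genes, which are called active here. The 3 others were the paralogs Rpl10l, with 0 reads in each library, which allows up to 3 reads in each, Rpl3l, with 14, 39 and 26 reads in BM-Mono, SC-Mono and SC-APC, and Rpl39l, with 14, 13 and 19. Among the members with high levels, Rps29, of the small subunit, had a TPM of 4243 in BM-Mono, 3821 in SC-Mono and 2236 in SC-APC. Rps24, of the small subunit, had 3675, 3383 and 4430 in the same order, the highest value of any member in SC-APC. Rps9, of the small subunit, had 3957 in BM-Mono and 3197 in SC-Mono, and Rpl13a, of the large subunit, 3386 and 3071. In SC-APC, Rpl23a had a TPM of 3385 and Rpl19 one of 2503, both of the large subunit.

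**Figure D1:**
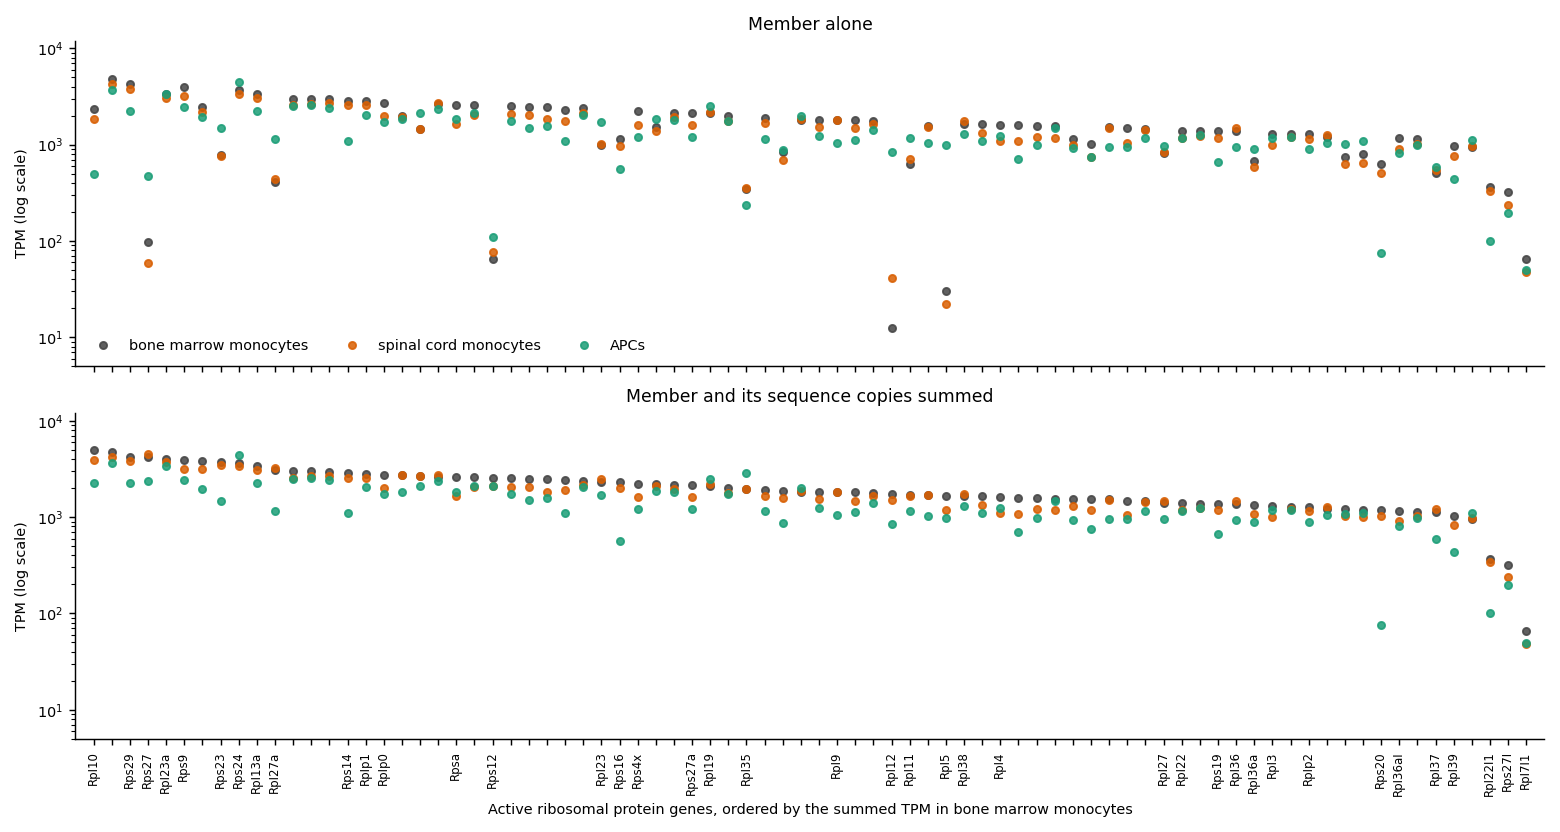
TPM (log scale, rescaled to the common genes) of the 80 active ribosomal protein genes in the 3 libraries, for the member alone (top) and for member and copies summed (bottom), ordered by the summed value in BM-Mono, with the symbols of genes described in the text. In BM-Mono and SC-Mono, Rpl5, Rpl12, Rps12 and Rps27 lie at 12.4 to 96.9 when taken alone and at 1189 to 4485 when copies are summed, whereas Rpl7l1, Rps27l and Rpl22l1 remain low and Rps20 is low in SC-APC at 75.7.

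The 83 genes took 11.5% of all TPM in BM-Mono, 10.02% in SC-Mono and 10.9% in SC-APC. As a share of the TPM of the common genes, the values were 13.5%, 11.8% and 10.9% in that order, and with the copies added to the members 16.9%, 14.9% and 11.7%, where copies outside the common genes are not in the denominator. The share was therefore highest in BM-Mono on each of the 3 denominators, while the order of SC-Mono and SC-APC changed with the denominator. As a share of reads, which counts longer mRNAs more, the values were 3.84% (95% Wilson interval 3.83 to 3.85), 3.49% (3.485 to 3.499) and 3.79% (3.783 to 3.798). With copies the shares of reads were 4.40%, 4.03% and 3.96%, so that SC-Mono and SC-APC lay closer together than by summed TPM. Mitochondrially encoded genes held 4.38%, 5.67% and 13.03% of TPM in the same order. Without them the members' share of all other TPM was 11.97%, 10.6% and 12.5%, so that SC-APC were highest on this denominator. It spans 54432 genes in the monocytes but 22242 in SC-APC, and the like share over the common genes was not computed. In pooled cells, a lower share of ribosomal protein mRNA per cell and fewer cells that are rich in it cannot be told apart.

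**Figure D2:**
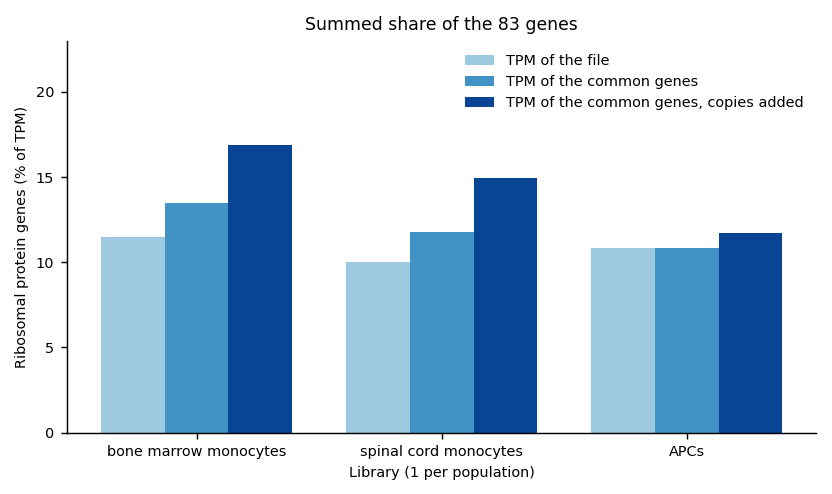
Summed TPM of the 83 ribosomal protein genes as a percentage of all TPM of the library, of the TPM of the common genes, and of the TPM of the common genes with copies added (bars from 0, 1 library per population, no error bars). BM-Mono have the highest bar in each set, from 11.5% to 16.9%. Adding copies raises SC-APC least, from 10.9% to 11.7%, but only 20 of the 1029 copies were listed for SC-APC. Copies outside the common genes are not in the denominator.

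The monocytes of both sites were compared first, since both were quantified on the same genes. The comparison asks how the ribosomal protein mRNAs of monocytes differ after entry into the inflamed spinal cord. Fold changes are on the log2 scale, from reads scaled by median-of-ratios size factors, with a 98% interval from counting error, and calls required the whole interval to exceed a 2-fold change. The ribosomal protein genes had small fold changes within a narrow range. Their median was -0.14 alone and -0.16 with copies (n = 80), against -0.33 over all 11574 active genes, and 68 of 80 members alone and 69 of 80 with copies lay above the median of all active genes. The sign of the members' median turned with the scaling, from -0.14 to 0.08 with size factors from the common genes alone, while the median of all active genes went from -0.33 to -0.17 (10072 active genes), so that the distance between them was 0.19 and 0.25. With those factors all values of this comparison are higher by the same amount. With no TPM threshold, the median of all 26312 genes with a read was 0.24 and the members' distance to it turned to -0.37. With copies summed, members ran from -0.63 to 0.14 with an SD over members of 0.18, against an SD of 1.87 over all active genes. Active genes need a TPM over 3 in only 1 of the libraries and were not matched to the members in level.

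Of the 80 active members, 1 (Rpl12) was called higher in SC-Mono and 0 lower, where 12.4% of all active genes were called higher and 14% lower. With copies summed, 0 were called in either direction. At a 1.5-fold change the count was again 1 higher and 0 lower alone, and 0 and 0 with copies, where 16.2% of active genes were called higher and 27.6% lower. Rpl12 had a TPM of 12.4 in BM-Mono and 41.5 in SC-Mono, a log2 fold change of 1.61 (1.36 to 1.88). With Gm10275 and the other copies, its TPM was 1749 and 1495 and its fold change -0.16 (-0.21 to -0.12). The call of Rpl12 therefore ended, and its direction turned, when the copies were counted. Rps12, a small subunit protein, had the next highest value alone, 0.64 (0.45 to 0.83), from a TPM of 64.8 and 77.1, and stood at -0.23 (-0.27 to -0.18) with copies, of which Rps12-ps3 held 13518 and 9497 reads.

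**Figure D3:**
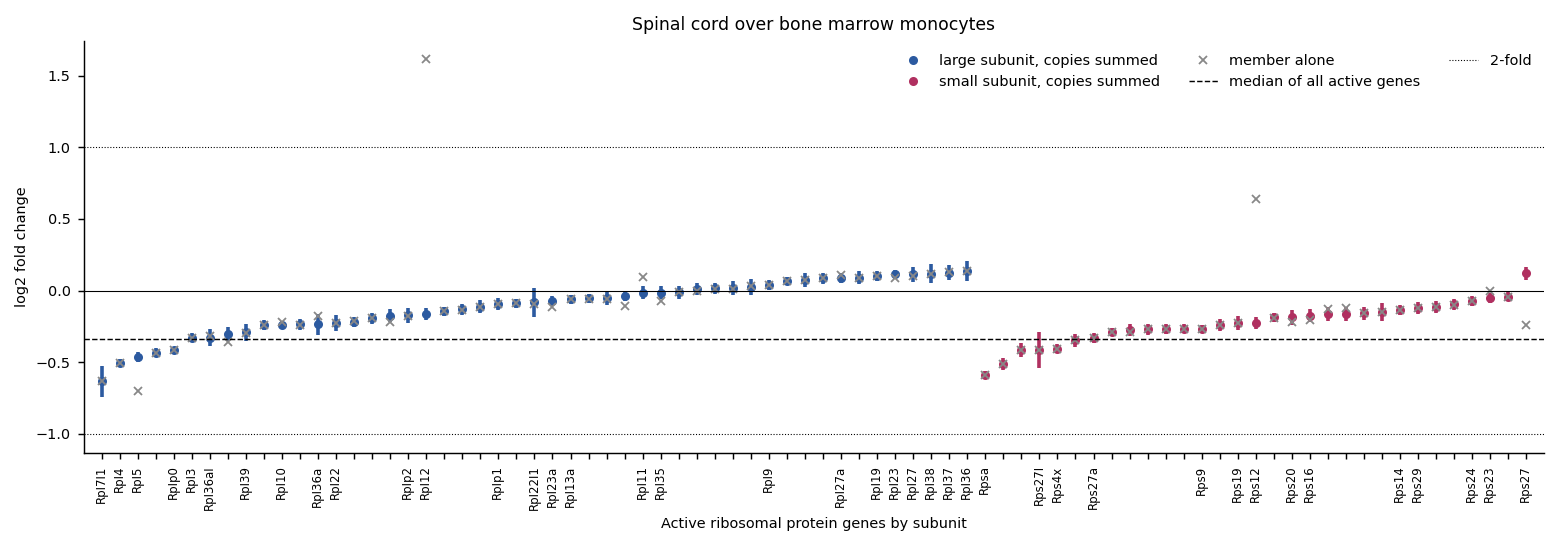
Log2 fold change of SC-Mono over BM-Mono for the 80 active ribosomal protein genes, by subunit (points: member and copies summed, with 98% counting intervals as bars; crosses: member alone), with the median of all active genes (dashed) and a 2-fold change (dotted), with the symbols of genes described in the text. All points lie between -0.63 and 0.14, and the crosses of Rpl12 (1.61) and Rps12 (0.64) stand apart. With size factors from the common genes all points shift up together.

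Large subunit genes had a higher median than small subunit genes, -0.08 (n = 49) against -0.23 (n = 31) with copies, and 16 of 49 large subunit genes but 1 of 31 small subunit genes (Rps27, at 0.12) lay above 0. With size factors from the common genes the counts above 0 were 35 of 49 and 15 of 31, and the medians 0.14 and -0.0024, an alternative chosen after the data were examined. No test of this difference was made. The 5 highest members with copies were Rpl36 at 0.14 (0.07 to 0.21), Rpl37 at 0.12 (0.07 to 0.18), Rps27 at 0.12 (0.08 to 0.17), Rpl38 at 0.12 (0.05 to 0.18) and Rpl27 at 0.12 (0.06 to 0.17). TPM of Rpl38 was 1652 in BM-Mono and 1753 in SC-Mono. Across members the fold change with copies was related to coding length (Spearman's rho -0.33, n = 80 genes of the same 2 libraries, which are not independent). The 20 shortest (78 to 360 coding bases) had a median of -0.12 and the 20 longest (615 to 1260) one of -0.30. Over all 11574 active genes rho with effective length was -0.18, and the part of this wider relation in the members' values was not tested.

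At the low end, Rpl7l1, a paralog of Rpl7 with a low level, had a TPM of 65.4 in BM-Mono and 47.9 in SC-Mono, a log2 fold change of -0.63 (-0.74 to -0.52). Rpsa (chr9:120127689-120132369), a small subunit protein also known as a laminin receptor, had a TPM of 2589 and 1655, a change of -0.59 (-0.61 to -0.56). Both fold changes lay below the median of active genes, and neither was called. Rpl4, with the longest coding sequence of the members, had a TPM of 1605 and 1092 (-0.51, -0.53 to -0.48). Rpl5 stood at -0.70 (-0.88 to -0.52) alone and at -0.46 (-0.50 to -0.43) with Gm15500 and its other copies, so its lower level remained in the sum.

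The stalk of the large subunit, which recruits the elongation factors, is made of Rplp0, Rplp1 and Rplp2. Rplp0, its base, had a TPM of 2735 in BM-Mono, 2002 in SC-Mono and 1727 in SC-APC. Rplp1 had 2807, 2573 and 2046, and Rplp2 1279, 1148 and 896. All 3 were highest in BM-Mono and lowest in SC-APC by TPM. In reads, SC-Mono over BM-Mono, Rplp0 differed by -0.42 (-0.44 to -0.39), Rplp1 by -0.09 (-0.13 to -0.05) and Rplp2 by -0.17 (-0.22 to -0.12), so that the intervals of Rplp0 did not overlap those of its partners. The values of SC-APC over SC-Mono were -0.31, -0.28 and -0.43 in that order. Rps27a, which is made as a fusion of ubiquitin with a small subunit protein, had a TPM of 2136, 1617 and 1210, a change of -0.33 (-0.36 to -0.29) in SC-Mono over BM-Mono and of -0.39 (-0.43 to -0.35) in SC-APC over SC-Mono.

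Paralogs of core ribosomal protein genes differed widely in level. Rpl22, an RNA-binding protein of the large subunit, and its paralog Rpl22l1 (chr3:28805436-28807424) had the same base at 266 of 366 aligned coding positions (72.7%). Rpl22 had a TPM of 1382 in BM-Mono, 1172 in SC-Mono and 1161 in SC-APC, and Rpl22l1 367, 330 and 100. SC-Mono over BM-Mono, Rpl22l1 differed by -0.09 (-0.20 to 0.01) and Rpl22 by -0.23 (-0.29 to -0.17). SC-APC over SC-Mono, Rpl22l1 differed by -1.74 and Rpl22 by 0.06, so the pair diverged between the spinal cord populations. Rps27l, a paralog of Rps27, had a TPM of 321, 237 and 196, and with 0 reads on copies it differed by -0.41 (-0.54 to -0.29) in SC-Mono over BM-Mono. Rpl36a and Rpl36al, which shared 87.9% of coding bases, had a TPM of 676, 583 and 893 (Rpl36a) and of 1159, 909 and 816 (Rpl36al). With copies, Rpl36a stood at a TPM of 1328, 1077 and 893. In reads with copies it went the other way from SC-Mono to SC-APC, from 3729 to 4663, a change of 0.18 (0.10 to 0.25). Rpl3 had 1303, 1002 and 1177 against at most 2.66 for Rpl3l. Rpl39 had 960, 763 and 439 against at most 1.69 for Rpl39l. Rps4x, encoded on the X chromosome, had 2218, 1609 and 1211. The tissue-restricted paralogs thus added next to nothing to the ribosomal protein mRNA of these cells.

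SC-APC were compared with SC-Mono, the cells from which they are taken to arise. Between these libraries the gene set of the quantification differed as well as the cells, and the parts of each cannot be told apart. Alone, 4 of 80 active members were called higher in SC-APC (Rpl5, Rpl12, Rpl27a and Rps27) and 3 lower (Rpl10, Rpl22l1 and Rps14), where 1.94% of 9734 active genes were called higher and 1.66% lower. With copies summed, 0 were called higher and 2 lower (Rpl22l1 and Rps14). At a 1.5-fold change, 8 were called higher and 7 lower alone, and 0 and 8 with copies, where 4.35% and 5.59% of active genes were called. From TPM in place of reads, with no interval, the counts alone were 14 higher and 5 lower with TPM as deposited and 10 and 14 with rescaled TPM. With an assumed coefficient of variation of 0.2 they were 3 and 1. The median of the members was -0.10 alone and -0.16 with copies, against -0.03 over all active genes, and the SD over members went from 0.96 alone to 0.37 with copies.

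All 4 members called higher were ones with over 50% of their monocyte reads on copies. Rpl5 had a TPM of 22.0 in SC-Mono and 980 in SC-APC, a log2 fold change of 5.39 (5.24 to 5.54) that became 0.38 (0.35 to 0.42) with copies. Rpl12 had 41.5 and 839, a change of 4.28 that became 0.09. Rpl27a had 442 and 1158, a change of 1.37 that became 0.03, with 10852 reads at Gm7536 in SC-Mono. Rps27 had 58.3 and 478, a change of 2.38 that turned to -0.84 (-0.89 to -0.79). Rps27 thus reversed, with 10852 and 5452 reads at Rps27rt. Rpl10, a protein of the large subunit's catalytic region, had a TPM of 1833 and 501, a change of -1.50 (-1.55 to -1.45) that became -0.65 (-0.68 to -0.62) with Rpl10-ps3, which is listed as protein-coding and held 19157 and 18226 reads. Rpl35 moved the other way, from 0.12 (0.03 to 0.21) to 0.59 (0.54 to 0.63), with 6331 and 11854 reads at Gm2000.

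**Figure D4:**
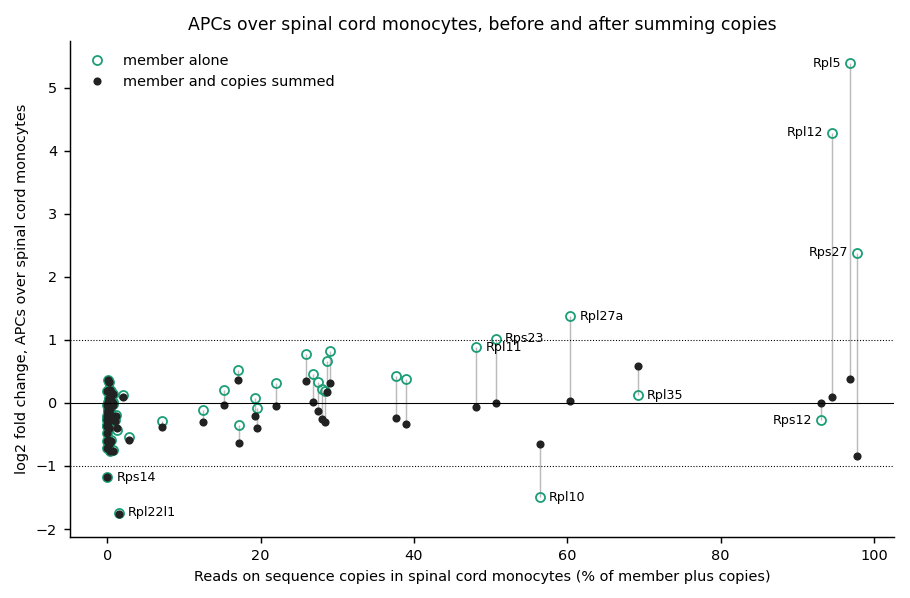
Log2 fold change of SC-APC over SC-Mono for the 80 active ribosomal protein genes against the share of reads on copies in SC-Mono (open circles: member alone; filled circles: member and copies summed; grey lines join the same gene; dotted lines: 2-fold). Rpl5, Rpl12 and Rps27, at over 90% on copies as is Rps12, lie between 2.38 and 5.39 alone and between -0.84 and 0.38 summed, and Rpl22l1 and Rps14, at under 2%, stay below -1.

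The 2 calls that remained had few copy reads. Rpl22l1 had 1880 reads in SC-Mono and 623 in SC-APC, a log2 fold change of -1.74 (-1.76 with copies), and 1.52% of its monocyte reads lay on copies. Rps14, a core small subunit protein, had 16498 and 8072 reads and a TPM of 2552 and 1098, a change of -1.18 (-1.22 to -1.13), with 0.013% on copies. Both calls ended when a coefficient of variation of 0.2 between libraries was assumed. Members called lower beyond 1.5-fold with copies were also Rpl9 at -0.77, Rpl39 at -0.76, Rps29 at -0.71, Rps19 at -0.66, Rpl10 and Rps27. TPM of Rpl9 was 1799 in SC-Mono and 1040 in SC-APC, and that of Rps29 3821 and 2236. Small subunit genes had a median of -0.26 and large subunit genes one of -0.08 with copies, the same order as between the monocytes, and the 2 comparisons share the spinal cord monocyte library.

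Effective length, by which TPM divides, differed between the quantifications for some members. Rps20 had 6311 reads in SC-Mono and 5457 in SC-APC (-0.36, -0.42 to -0.30) but a TPM of 513 and 75.7, with an effective length of 635 bases in SC-Mono and 3456 in SC-APC. Rps16 had 6692 and 10010 reads but a TPM of 957 and 559, with an effective length of 361 and 859 bases. With copies, Rps16 had 10727 and 10010 reads, a change that turned from 0.43 (0.38 to 0.49) alone to -0.25 (-0.29 to -0.20), and Rps20 stood at -0.63 (-0.69 to -0.57). TPM with copies depends on the effective length of the copies as well. Rpl27a with copies had a TPM of 3217 in SC-Mono and 1158 in SC-APC but changed by 0.03 in reads. Summed TPM is therefore not a like measure in SC-APC and the monocytes.

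SC-APC were also set beside BM-Mono, from the same libraries. Alone, 7 members were called higher (Rpl5, Rpl11, Rpl12, Rpl23, Rpl27a, Rps23 and Rps27) and 3 lower (Rpl10, Rpl22l1 and Rps14), and with copies 0 and 2 (Rpl22l1 and Rps14), where 14% of 10190 active genes were called higher and 11.7% lower. At a 1.5-fold change, 9 members were called higher and 6 lower alone, and 2 (Rpl23 and Rpl35) and 6 with copies, where 18.7% and 22.1% of active genes were called. Rpl22l1 stood at -1.60 and Rps14 at -1.08 with copies. The median of members with copies was -0.04 against -0.17 over all active genes.

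The transcription start of these genes is of interest for the 5′ TOP motif. RefSeq start windows (GRCm38.p6) were matched for 63 of the 83 genes, with 75 starts. A run of at least 7 bases, each C or T, on the coding strand within 20 bases before to 20 after the start, was present at 40 of 75 starts (53.3%), against 7986 of 32851 starts of all genes (24.3%). A match is a description of the letters only. Windows of 30 bases across the start are shown for Rpl4, among the lowest in SC-Mono over BM-Mono, Rpl38, among the highest, Rpl22l1, which was called lower in SC-APC, and the stalk gene Rplp2, with the run in capitals. They lie at chr9:64173367-64173396, chr11:114668570-114668599, chr3:28805498-28805527 and chr7:141447638-141447667, all on the plus strand.
Rpl4: agTCTTTCCTTTTCCTgtgggagcagccgg
Rpl38: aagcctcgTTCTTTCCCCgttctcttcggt
Rpl22l1: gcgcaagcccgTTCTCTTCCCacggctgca
Rplp2: cgtcagcgTCTTCCTTTCgccgccggacgc

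A run was thus present near the start in genes at both ends of the monocyte comparison. That of Rpl4 (14 bases, with the first at -18 from the RefSeq start) ended before the RefSeq start. The GENCODE gene begins further upstream, at chr9:64173375, so part of the run lies within it. The counts of starts above include runs that end before the RefSeq start. At the RefSeq starts looked up for Rpsa, also among the lowest between the monocytes, and Rpl10, called lower in SC-APC when taken alone, no such run was found. The RefSeq start of Rpsa lies downstream of its GENCODE gene start given above, which the bases searched did not reach. A list of 18 other mRNAs with a 5′ TOP start shares genes with the lists of ribosome components and elongation factors. Its median was -0.28 in SC-Mono over BM-Mono, against -0.33 over all active genes. Of the 18, 0 were called higher and 1 lower, where 12.4% and 14% of all active genes were called. The called gene was Nap1l1, a histone chaperone, at -1.14 (-1.20 to -1.08), with a TPM of 334 and 148. In SC-APC over SC-Mono the list had a median of 0.18, against -0.03 over all active genes. There 0 were called, where 1.94% of all active genes were called higher and 1.66% lower. Copies were searched for the 83 members only, so genes of this list and of the lists below were taken alone. The part of the smaller SC-APC gene set in their values was not tested.

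Of the ribosome components with other names, Rack1 lay within the range of the members with copies summed between the monocytes, and Fau above it. Both were taken alone, and within the range of the members alone, -0.70 to 1.61. Fau encodes a ribosomal protein fused to a ubiquitin-like protein, and Rack1 is a scaffold on the small subunit. Fau had a TPM of 2424 in BM-Mono, 2776 in SC-Mono and 2131 in SC-APC, and Rack1 1178, 946 and 677. SC-Mono over BM-Mono, their changes were 0.21 and -0.27, and neither was called. All 9 elongation and termination factors were active and 0 were called in either comparison. Of all active genes, 12.4% were called higher and 14% lower between the monocytes, and 1.94% and 1.66% in SC-APC over SC-Mono. Eef1a1, which delivers aminoacyl-tRNA, had a TPM of 8705, 6912 and 7799, above every ribosomal protein gene, and a change of -0.27 in SC-Mono over BM-Mono. Eef2, which moves the ribosome along, changed by -0.51, Eef1b2 by -0.38, Eef1d by -0.22, Eif5a by -0.15 and Gspt1 by -0.62. Eef1g, at 0.33, Eef1e1, at 0.53, and the termination factor Etf1, at 0.65, lay above 0.

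Of 20 active genes that control translation, 5 were called higher in SC-Mono than in BM-Mono and 3 lower, where 12.4% and 14% of all active genes were called, and their median was 0.03. Ppp1r15a, which reverses the phosphorylation of eIF2 alpha, had a TPM of 67.7 and 333, a change of 2.36 (2.29 to 2.43). Myc, a transcription factor that drives ribosome production, had 6.77 and 31.2, a change of 2.29 (2.06 to 2.52). Ddit4 and Sesn2, inhibitors of mTORC1 signalling, changed by 1.80 and 1.49, and Atf4, the transcription factor of the integrated stress response, by 1.56. Lower were Eif4ebp2, a repressor of cap-dependent translation, at -2.11 (-2.19 to -2.02), with a TPM of 101 and 25.7, and the eIF2 alpha kinases Eif2ak3, at -1.62, and Eif2ak1, at -1.23. In SC-APC over SC-Mono 0 of the 20 were called, where 1.94% of all active genes were called higher and 1.66% lower.

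In the other lists of the translation machinery, calls between the monocytes are to be read beside the 12.4% of all active genes called higher and 14% called lower. Of 60 active ribosome assembly factors, 1 was called higher, the nucleolar GTPase Gnl3 (1.83), and their median was -0.09. Of 20 active genes of RNA polymerase I and its factors, 1 was called higher (Taf1d, 1.20), with a median of -0.38. Of 37 initiation factors 0 were called, with a median of -0.36. Among mitochondrial ribosomal proteins, 3 of 49 large subunit genes were called lower (Mrpl33 at -1.61, Mrpl49 at -1.51 and Mrpl28 at -1.41) and 0 of 29 small subunit genes, with medians of -0.37 and -0.41. Of 10 genes of ribosome quality control, Ltn1, the ubiquitin ligase of stalled chains, was called lower (-1.37). In all, 7 genes of these lists were called higher and 8 lower. In SC-APC over SC-Mono, 1 was called higher (Mrpl23, 2.57, with a TPM of 4.42 and 65.8) and 1 lower (Polr2l, a subunit shared by the RNA polymerases, -1.48), where 1.94% and 1.66% of all active genes were called. Mrpl23 rose more by TPM than by reads, and its copies were not searched. With reads divided by effective length the higher count remained 1 and the lower count was 11. The lists were chosen with results of these libraries known.

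**Figure D5:**
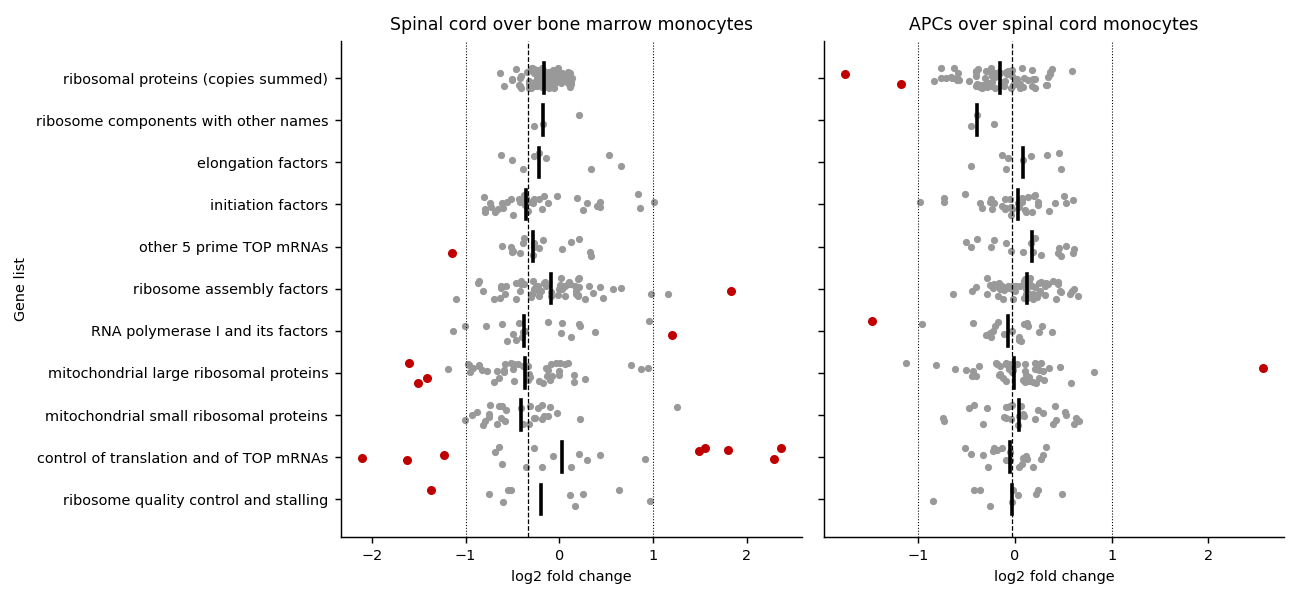
Log2 fold changes of ribosomal proteins (member and copies summed) and of the other translation lists, for SC-Mono over BM-Mono (left) and SC-APC over SC-Mono (right); grey points are active genes, red points those called beyond 2-fold, black bars list medians, the dashed line the median of all active genes and dotted lines a 2-fold change. In the left panel the ribosomal proteins lie within -0.63 to 0.14 and the genes that control translation spread from -2.11 to 2.36. Copies were searched for the ribosomal proteins only, and genes of the other lists are shown alone.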

How the data were processed

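RNA-Seq libraries of 3 pooled populations (1 each) were used. The authors estimated expression with Salmon 0.14.1 (genome build mm10 per the submitters' processing notes) on GENCODE vM22 and summed transcripts by gene. Values deposited by the authors are estimated counts of reads, which are not normalized, and TPM, which is normalized for effective length and library size. The SC-APC library was quantified on a smaller gene set, whose making is not given in the sources used here. Of the 1029 copies, the 20 listed for SC-APC were the 20 annotated as protein-coding. A read shared by a gene and its copies is split by Salmon, so member and copy levels depend on the genes offered.

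Counts were rounded. The log2 ratio was the median of gamma posteriors of reads plus 1, with percentiles 1 and 99, after median-of-ratios scaling, over all genes of the monocyte libraries or, with SC-APC, the common genes. Calls needed the interval beyond 2-fold (second rule 1.5-fold) and a rescaled TPM over 3 in at least 1 library, after the study's GFold definition; GFold itself was not used. Copies were found with blastn 2.17.0 (coding sequences of GENCODE M21, identity of at least 90% over at least 50%). Some are longer genes that contain the match, such as Gins1 for Rpl41. The script was tested on simulated data.

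Named genes were the 5 highest by TPM per library, the 5 largest and smallest changes per comparison, called members, paralogs, stalk proteins, Rpsa, Rps27a, the 5 members most affected by copies, and called or core genes of the lists; others (such as Rps20 and Rps16) were chosen after their values were seen. Some genes that this rule names are not reported here. Members and lists were chosen with earlier results of these data known. Alternatives covered scaling, TPM with pseudocounts of 1 or 0.1, TPM thresholds, reads added, bounds, an assumed coefficient of variation and copies. Figures were drawn with matplotlib 3.10.9. Tables were computed in pandas 2.3.3 and scipy 1.17.1 (Python 3.11.15), and TMM factors in edgeR 4.0.16 (R 4.3.3).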

Additional observations from a re-analysis of the deposited data

Results flagged for a closer look

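Reads at sequence copies of the ribosomal protein genes lie outside the 83 genes and were far above the limit of 3 reads, with 187926 reads in BM-Mono, 146159 in SC-Mono and 48212 in SC-APC, where fewer copies were listed. Pseudogenes by type or name held 164248, 125209 and 28937 of these reads.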

How the results depend on the processing

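No paired analysis was possible because each population is 1 library, and for the same reason no library could be left out. The distance of the members' median to that of all active genes, 0.19 in SC-Mono over BM-Mono, was 0.13 with TPM as deposited, 0.15 with rescaled TPM, 0.15 with reads divided by effective length, 0.23 at a TPM threshold of 10, 0.17 with pseudogene reads added, 0.17 with all copies added, 0.18 for members with few pseudogene reads and 0.25 over the common genes, and it turned to -0.37 with no TPM threshold. In SC-APC over SC-Mono, -0.07 became -0.033 with TPM as deposited, -0.041 with rescaled TPM, -0.040 with effective length, -0.038 at a threshold of 10, -0.10 without a threshold, -0.12 with pseudogene reads added, -0.13 with all copies added and -0.13 for members with few pseudogene reads. Members called higher in SC-Mono went from 1 to 0 with a coefficient of variation of 0.2 or 0.4, with pseudogene reads or copies added, and among members with few pseudogene reads. In SC-APC the 4 called higher became 2 with a coefficient of 0.4, 1 with pseudogene reads added, 1 among members with few pseudogene reads and 0 with all copies, and the 3 called lower became 0 with either coefficient. Rpl12 turned from 1.61 to -0.16 with pseudogene reads or copies added, and Rps27 in SC-APC from 2.38 to -0.84 with copies. Shares of 11.5%, 10.02% and 10.9% became 13.5% and 11.8% over the common genes for the monocytes, 3.84%, 3.49% and 3.79% as reads, 14.3%, 12.7% and 11.7% with copies, 16.9%, 14.9% and 11.7% over the common genes with copies, and 11.97%, 10.6% and 12.5% without mitochondrially encoded genes. Over all active genes, calls in SC-APC over SC-Mono split into 189 higher and 162 lower, and into 232 and 324 with effective length. Genes of the translation lists called lower in SC-APC went from 1 to 11 with effective length. The causes were not tested, beyond what each setting itself changes.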
